A study of Homo sapiens with 18 samples.

Results

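The subject here is the difference between the responses of PLC and Hep3B-labelled cells to knockdown of ATAD2. For each gene, the mean of 3 PLC ATAD2 siRNA arrays minus the mean of 3 PLC control arrays was taken, and the same difference on the Hep3B-labelled arrays was subtracted from it. It used 12 of the 18 arrays of the series, and the 6 arrays labelled SNU449 entered only through the normalization and the shared estimate of the spread. A positive value means that the PLC change lay above the Hep3B-labelled change, either because the gene went further up in PLC or because it went further down on the Hep3B-labelled arrays. Each of 19777 genes was represented by the probe set with the highest mean log2 signal.

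The series was set up to examine ATAD2 as a target in hepatocellular carcinoma, the main cancer of liver cells, in established cell lines grown in RPMI medium. The PLC (PLC/PRF/5) ATAD2 siRNA group and the PLC control group had 3 arrays each, as did the Hep3B-labelled ATAD2 siRNA group and the Hep3B-labelled control group. All 4 groups had been transfected with siRNA in Lipofectamine RNAiMax, and the controls received a siRNA with no target. The series design calls the treatment siRNA, and it is treated here as a knockdown, although sample labels call it a knockout. Replicates are labelled as biological. The siRNA sequences, how many siRNAs were used and the time after transfection were not known here, so that a change through another target of a siRNA cannot be told apart from a change through ATAD2.

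ATAD2 is a chromatin protein that joins an AAA+ ATPase to a bromodomain, a fold that binds acetylated histone tails. It is itself a target of E2F factors, the activators of genes for DNA replication, and it is often abundant in dividing tumour cells, where it has been described as a coactivator of E2F, MYC and nuclear receptor targets. Liver tumour lines differ in how much of the hepatocyte programme (albumin, apolipoproteins, clotting factors) they keep, and lines that have lost it often express mesenchymal and matrix genes.

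The labels and the arrays were checked first. RB1, which Hep3B cells are known to lack, had a log2 signal of 8.70, 8.51 and 8.64 on PLC ATAD2 siRNA arrays and 8.59, 8.55 and 8.57 on PLC control arrays, against 9.22, 9.15 and 9.37 on Hep3B-labelled ATAD2 siRNA arrays and 9.47, 9.44 and 9.51 on Hep3B-labelled control arrays. RB1 was thus present under the Hep3B label, where the hepatocyte marker ALB was near background and the matrix gene COL1A2 had a signal of 12.46, 12.38 and 12.43 on the control arrays. This goes against what is known of Hep3B. The control means on the arrays labelled SNU449 were 4.44 for RB1 and 13.8 for ALB. The identity of the lines could not be settled from the labels, so that the groups are called Hep3B-labelled throughout. Of 21 leukocyte markers, 7 lay above the background level defined from olfactory receptor genes in the controls of both lines, 13 lay at it in both and 1 under the Hep3B label alone. Of 18 endothelial markers, 6 lay above it in both, 8 at it in both and 4 under the Hep3B label alone. The defining leukocyte genes PTPRC and CD3D and the endothelial gene CDH5 were near background in both, and the part of other cell types in the results was not tested. In bulk RNA, fewer cells of a type and less RNA per cell cannot be told apart.

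Arrays of the PLC ATAD2 siRNA group stood apart in RNA quality. The log2 signal of the 5 prime probe sets of beta-actin and GAPDH minus that of the 3 prime ones was -1.16, -0.47 and -1.08 on PLC ATAD2 siRNA replicates 1, 2 and 3, and -0.57, -0.49 and -0.44 on the PLC controls. It was -0.69, -0.39 and -0.65 on the Hep3B-labelled ATAD2 siRNA arrays and -0.58, -0.71 and -0.65 on their controls. PLC replicates 1 and 3 thus had a low 5 prime signal, and counts and several single results are given with and without both. Leaving both out keeps replicate 2 as the only treated PLC array, which is then assumed to vary like the arrays of the other groups. Of the 118 genes named by rule that had a call, 33 lost it in that setting. The median gene had a within-group SD of 0.118 log2 units in the PLC ATAD2 siRNA group, 0.0719 in the PLC controls, 0.0931 in the Hep3B-labelled ATAD2 siRNA group and 0.0701 in the Hep3B-labelled controls. The number of arrays limits the precision, and no detection calls were used here.

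ATAD2 itself fell in both lines and fell further on the Hep3B-labelled arrays. Its log2 signal was 7.05, 7.17 and 7.06 on PLC ATAD2 siRNA arrays and 9.78, 9.67 and 9.69 on PLC control arrays. It was 5.15, 4.70 and 5.65 on Hep3B-labelled ATAD2 siRNA arrays and 8.94, 8.93 and 9.02 on Hep3B-labelled control arrays. No ATAD2 siRNA array overlapped a control array of its line. The log2 change was -2.62 in PLC (6.14-fold lower) and -3.80 on the Hep3B-labelled arrays, a difference of 1.18 ± 0.22 (SE; limma, adjusted p = 0.00361). Of the 3 Hep3B-labelled ATAD2 siRNA arrays, 2 lay under that line's background ceiling of 5.34, so that the fall there was at least 11.5-fold, with each of those arrays set to the ceiling. The size of the difference also rested on the scaling. On the values as deposited it was 0.41 (limma, adjusted p = 0.207), and with quantile normalization within each line 0.46 (limma, adjusted p = 0.157). Of 3 other ATAD2 probe sets, 2 also gave a difference past the threshold in the same direction. However, 1 of those 2 read 4.49, 5.15 and 5.00 on PLC ATAD2 siRNA arrays and 4.71, 4.66 and 4.68 on Hep3B-labelled ones. These values lay around or under the background ceilings of 5.03 and 5.34, so that the size of its difference is uncertain.

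A line-dependent response was called for 1918 genes, 9.7% of the 19777 tested, at an adjusted p under 0.05 (limma, Benjamini-Hochberg over all genes). The difference was positive for 941 (4.76%) and negative for 977 (4.94%), and 81 genes (0.41%) had a difference of at least 1 log2 unit. The median size among called genes was 0.46 log2 units. All 1918 had 3 PLC deviations from the control mean on a single side of the 3 Hep3B-labelled deviations, which 35.3% of all genes did. Without both PLC arrays of low 5 prime signal, 1682 genes were called, of which 924 were among the 1918, with the spread of the single treated PLC array taken from the other groups. On the values as deposited 31.2% of the calls were positive and with arrays centred on their medians 17%, against 49.1% as reported, so that the balance of the directions depended on the scaling.

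Most of these genes responded on the Hep3B-labelled arrays. Knockdown changed 904 genes in PLC, 462 upward (2.34%) and 442 downward (2.23%), and 3247 on the Hep3B-labelled arrays, 1717 upward (8.68%) and 1530 downward (7.74%). The counts in PLC depended on single arrays. Without PLC ATAD2 siRNA replicate 2, the array of the highest 5 prime signal in its group, 3215 genes changed in PLC and 3731 on the Hep3B-labelled arrays, with 3323 line-dependent calls. As reported, of the 1918 genes with a line-dependent response, 1323 (69%) had a change that passed on the Hep3B-labelled arrays and not in PLC. Another 249 (13%) had a change that passed in PLC and not on the Hep3B-labelled arrays, and 256 (13.3%) passed in neither. Both changes passed for 90 genes, in the same direction for 58 and in opposite directions for 32. Of the 58, 56 changed further on the Hep3B-labelled arrays and 2 further in PLC. Across all genes the changes in the lines correlated with Pearson's r of 0.137, and with 0.246 over the 11311 genes above background in both controls, a description over genes that share arrays and normalization within each line. The difference between PLC and the arrays labelled SNU449, which shares the PLC arrays, was called for 40 genes (0.202%).

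**Figure D1:**
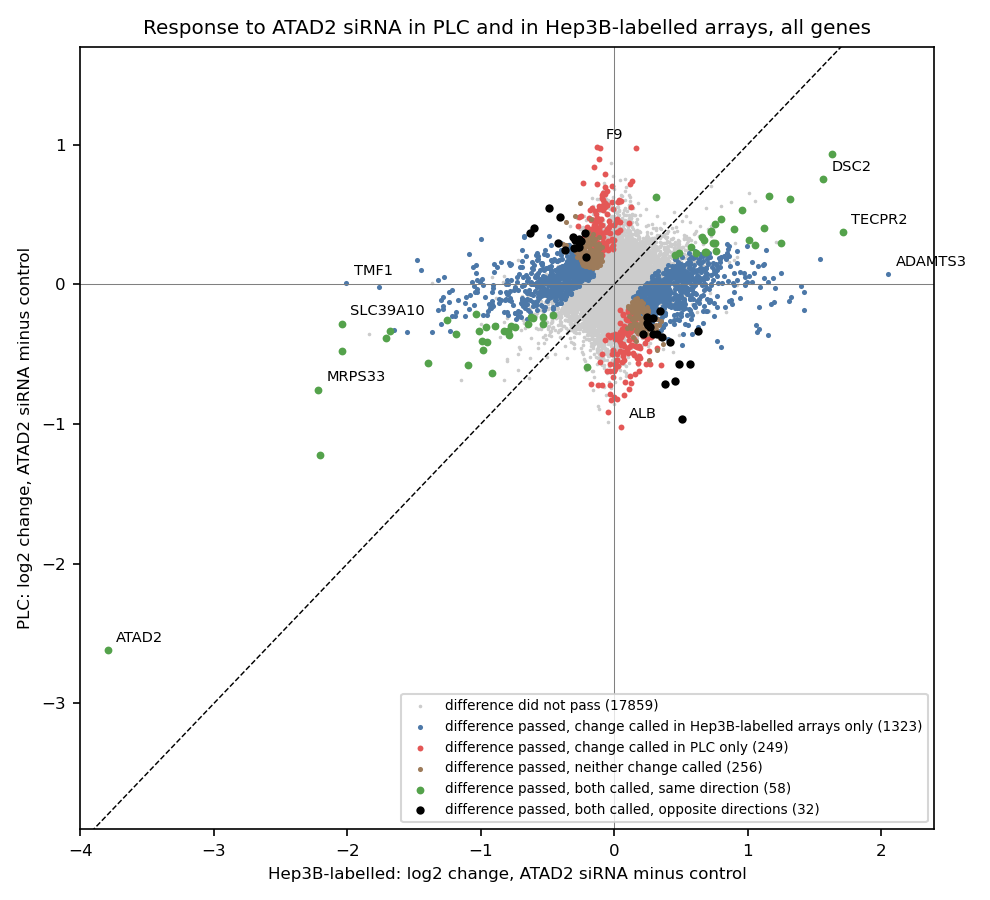
Each point is a gene, with its log2 change (ATAD2 siRNA minus control) on Hep3B-labelled arrays on the horizontal axis and in PLC on the vertical axis, coloured by which change passed the test, and the dashed line marks equal changes. The 1323 genes called on the Hep3B-labelled arrays alone lie along the horizontal axis, the 249 called in PLC alone along the vertical axis, and the 32 called in opposite directions in the upper left and lower right.

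The largest positive differences among genes above background in both lines came from genes that fell on the Hep3B-labelled arrays. SLC39A10, a zinc importer of the plasma membrane, had a log2 signal of 8.11, 8.22 and 8.35 on PLC ATAD2 siRNA arrays and 8.55, 8.44 and 8.53 on PLC controls, against 7.89, 7.78 and 7.86 on Hep3B-labelled ATAD2 siRNA arrays and 9.85, 9.88 and 9.92 on their controls. It fell 1.22-fold in PLC and 4.12-fold on the Hep3B-labelled arrays, with no overlap between treated and control arrays in either line. The difference was 1.76 ± 0.09 (SE; limma, adjusted p = 2.2e-08). MRPS33, a subunit of the small mitochondrial ribosome, had a signal of 9.14, 9.07 and 9.20 on PLC ATAD2 siRNA arrays and 9.92, 9.86 and 9.90 on PLC controls, against 7.91, 7.53 and 7.83 and 9.94, 10.01 and 9.98 in the same groups under the Hep3B label. Starting from near-equal control levels, MRPS33 fell in both lines and 2.76-fold further on the Hep3B-labelled arrays (difference 1.47 ± 0.11 SE; limma, adjusted p = 7.88e-07). The non-coding RNA LINC00621 fell by 0.48 in PLC and by 2.04 on the Hep3B-labelled arrays on the log2 scale, and FRK, a Src-related tyrosine kinase, fell by 0.34 and by 1.68. Their differences were 1.56 and 1.35.

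Other genes of this group showed a change that passed on the Hep3B-labelled arrays alone. SPIN4, of the spindlin family of histone readers, had a signal of 8.62, 8.40 and 8.60 on PLC ATAD2 siRNA arrays and 8.53, 8.39 and 8.39 on PLC controls, which overlapped. It had a signal of 7.51, 7.35 and 7.73 on Hep3B-labelled ATAD2 siRNA arrays and 8.85, 9.04 and 9.04 on their controls, which did not. The difference was 1.55 ± 0.13 (SE; limma, adjusted p = 2.68e-06). The p21-activated kinase gene PAK6 differed by 1.35, with a change of 0.03 in PLC and -1.32 on the Hep3B-labelled arrays. S100A4, a calcium-binding protein linked to cell motility, differed by 1.33, with changes of -0.32 and -1.65.

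TMF1, a Golgi-associated protein, had the largest positive difference, 2.02 ± 0.11 (SE; limma, adjusted p = 2.67e-08). Its main probe set read 9.62, 9.29 and 9.62 on PLC ATAD2 siRNA arrays and 9.48, 9.56 and 9.45 on PLC controls, against 7.43, 7.47 and 7.49 on Hep3B-labelled ATAD2 siRNA arrays and 9.57, 9.45 and 9.40 on their controls. That probe set stood alone. None of 5 other TMF1 probe sets passed, only 1 had the same sign, and with the mean of all probe sets the difference was 0.05 (limma, adjusted p = 0.834). Over the 1918 calls, 644 genes had a single probe set. Of the 1274 with more, 365 had another probe set called in the same direction and 21 had one called in the opposite direction.

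The immediate early factors EGR1 and NR4A2, transcription factor genes induced within minutes of growth signals, also had large positive differences, and these leaned on a single array. EGR1 read 9.30, 9.12 and 9.21 on PLC ATAD2 siRNA arrays and 9.05, 8.99 and 9.07 on PLC controls, against 10.73, 8.95 and 10.57 on Hep3B-labelled ATAD2 siRNA arrays and 11.49, 11.50 and 11.68 on their controls. All 3 Hep3B-labelled ATAD2 siRNA arrays lay below their controls, with replicate 2 far below the other two. The difference was 1.65 ± 0.41 (SE; limma, adjusted p = 0.0183), and 1.08 without that array (limma, adjusted p = 8.13e-06). Without both PLC arrays of low 5 prime signal the EGR1 difference was 1.55 and the call was lost (limma, adjusted p = 0.0862). NR4A2 read 6.51, 5.56 and 6.71 on Hep3B-labelled ATAD2 siRNA arrays and 7.12, 7.36 and 7.31 on their controls, and its difference of 1.33 was 0.98 without replicate 2 (limma, adjusted p = 0.000174).

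**Figure D2:**
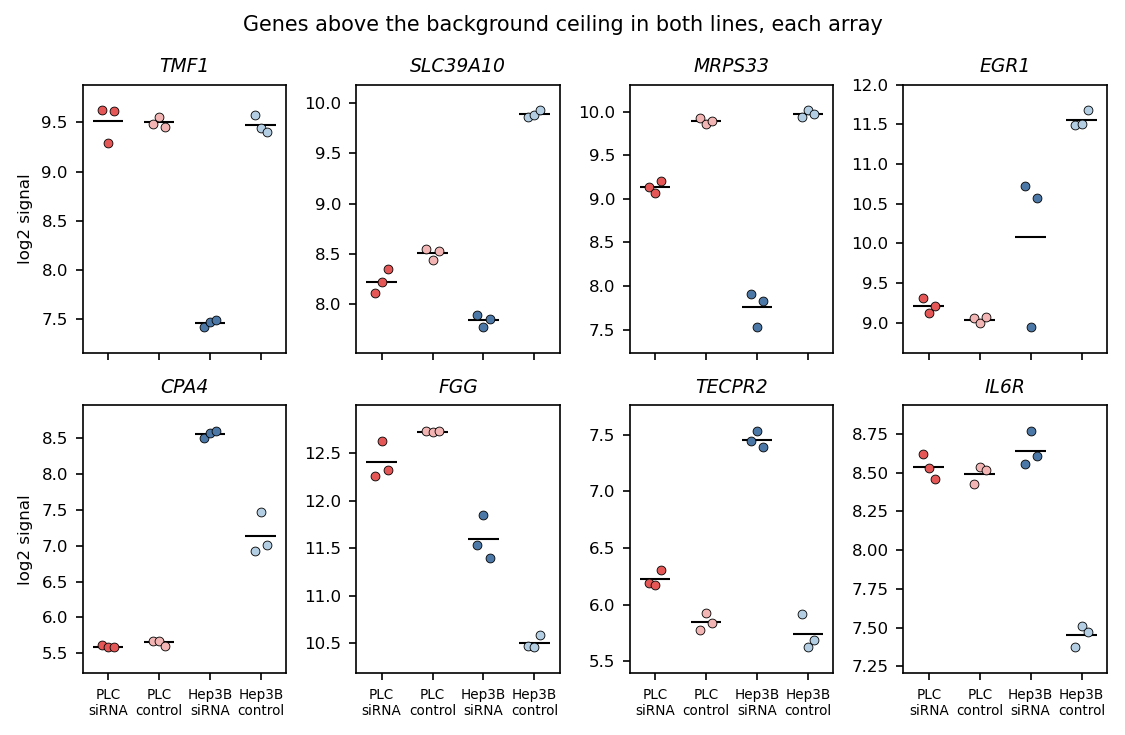
Log2 signal on each array (points; bars are group means) of 8 genes above background in the controls of both lines, in the order PLC ATAD2 siRNA, PLC control, Hep3B-labelled ATAD2 siRNA and Hep3B-labelled control. For SLC39A10, MRPS33 and TMF1 the Hep3B-labelled ATAD2 siRNA arrays lie far below their controls, for CPA4, FGG, TECPR2 and IL6R they lie above them, and for EGR1 replicate 2 lies apart.

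The largest negative differences among expressed genes came from genes that rose on the Hep3B-labelled arrays. CPA4, a secreted carboxypeptidase, read 5.61, 5.59 and 5.58 on PLC ATAD2 siRNA arrays and 5.68, 5.67 and 5.60 on PLC controls, against 8.50, 8.58 and 8.60 on Hep3B-labelled ATAD2 siRNA arrays and 6.92, 7.48 and 7.01 on their controls. It rose 2.68-fold on the Hep3B-labelled arrays, with every treated array above every control, and its PLC change of -0.06 did not pass. The difference was -1.48 ± 0.15 (SE; limma, adjusted p = 2.02e-05). The autophagy gene TECPR2 rose in both lines, 1.3-fold in PLC and 3.28-fold on the Hep3B-labelled arrays (difference -1.34; limma, adjusted p = 1.49e-06), though its other probe set did not pass. IL6R, the receptor subunit for interleukin 6, read 8.62, 8.53 and 8.46 on PLC ATAD2 siRNA arrays and 8.43, 8.54 and 8.52 on PLC controls, against 8.55, 8.77 and 8.61 and 7.37, 7.51 and 7.47 in the same groups under the Hep3B label. The Hep3B-labelled cells thus reached the PLC level after knockdown, with a difference of -1.15 ± 0.10 (SE; limma, adjusted p = 2.58e-06).

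Several of these genes are products of the liver. The fibrinogen gamma chain gene FGG read 12.26, 12.63 and 12.32 on PLC ATAD2 siRNA arrays and 12.73, 12.72 and 12.73 on PLC controls, against 11.54, 11.85 and 11.39 on Hep3B-labelled ATAD2 siRNA arrays and 10.47, 10.46 and 10.59 on their controls. It rose 2.12-fold on the Hep3B-labelled arrays, and in PLC all 3 treated arrays lay below the controls without passing the test (-0.32; limma, adjusted p = 0.0892). The difference was -1.41 ± 0.15 (SE; limma, adjusted p = 2.28e-05), and -1.18 without both PLC arrays of low 5 prime signal (limma, adjusted p = 0.000533). FGA, the alpha chain, read 11.73, 11.94 and 11.68 on PLC ATAD2 siRNA arrays and 12.18, 12.11 and 12.08 on PLC controls, against 8.29, 9.23 and 7.89 and 7.39, 7.32 and 7.49 in the same groups under the Hep3B label. Its difference of -1.41 was -1.25 without both of those arrays (limma, adjusted p = 0.0568), and neither of its other probe sets passed. FGB, the beta chain, rose by 0.39 on the Hep3B-labelled arrays, with a difference of -0.43. Complement C3 rose 1.71-fold on the Hep3B-labelled arrays (difference -1.18; limma, adjusted p = 0.00705) and the creatine synthesis enzyme gene GATM rose 1.74-fold (difference -1.25; limma, adjusted p = 0.000373), with 1 of its 7 other probe sets called in the same direction. PLPP3, a lipid phosphatase, and STC1, the secreted factor stanniocalcin 1, differed by -1.32 and -1.31, and NHLRC3 by -1.17. In PLC, STC1 lay close to that line's background ceiling of 5.03, with means of 4.98 after siRNA and 5.12 in the controls.

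Genes near background in the controls of a single line needed separate reading, since a gene that is not expressed cannot fall. A gene was called near background where its control mean lay at or under the 90th percentile of 82 olfactory receptor genes, which are hardly expressed outside the nose. That ceiling was 5.03 log2 units in PLC and 5.34 on the Hep3B-labelled arrays. Of 11311 genes above it in both controls, 1517 (13.4%) had a line-dependent response. Of 694 genes near background in the PLC controls alone, 94 (13.5%) did, against 102 of 1649 (6.19%) near background in the Hep3B-labelled controls alone and 205 of 6123 (3.35%) near background in both.

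Near background in PLC alone, ADAMTS3 had the largest difference, -1.98 ± 0.14 (SE; limma, adjusted p = 5.05e-07). This procollagen-processing protease read 2.35, 2.23 and 2.43 on PLC ATAD2 siRNA arrays and 2.13, 2.31 and 2.35 on PLC controls, against 7.88, 7.67 and 8.06 on Hep3B-labelled ATAD2 siRNA arrays and 5.88, 5.87 and 5.71 on their controls. PLC stayed at background in both groups, and the 4.15-fold rise on the Hep3B-labelled arrays made the difference. ASZ1, a germ cell gene of transposon silencing, read 2.65, 2.55 and 2.48 on PLC ATAD2 siRNA arrays and 2.61, 2.52 and 2.59 on PLC controls, against 4.58, 3.96 and 4.61 and 6.01, 6.20 and 6.23 in the same groups under the Hep3B label. It fell at least 1.75-fold there, to below the background ceiling, with a difference of 1.75 (limma, adjusted p = 1.86e-05). PTX3, a pentraxin of innate immunity, rose 2.09-fold and the cell cycle regulator RGCC 2.92-fold on the Hep3B-labelled arrays (differences -1.36 each), while PADI3, a peptidylarginine deiminase, fell 2.42-fold (difference 1.33). With the mean of its probe sets RGCC no longer passed (-0.29; limma, adjusted p = 0.372). In each of these 5 genes the PLC signal after knockdown lay under the ceiling too, so that the PLC term says nothing about how an expressed gene would respond.

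Near background in the Hep3B-labelled controls alone were a chemokine and several liver genes. CXCL6, a neutrophil chemokine, read 7.86, 7.97 and 8.02 on PLC ATAD2 siRNA arrays and 8.26, 8.09 and 8.05 on PLC controls, against 6.35, 6.93 and 6.41 on Hep3B-labelled ATAD2 siRNA arrays and 5.14, 5.07 and 5.21 on their controls. It rose at least 2.33-fold under the Hep3B label, from controls under the ceiling, and its difference was -1.61 ± 0.18 (SE; limma, adjusted p = 4e-05). ALB, serum albumin, read 9.54, 9.78 and 9.44 on PLC ATAD2 siRNA arrays and 10.65, 10.52 and 10.65 on PLC controls, against 2.85, 3.53 and 2.86 and 2.90, 3.16 and 3.02 in the same groups under the Hep3B label. It fell 2.03-fold in PLC and stayed at background under the Hep3B label, and its difference was -1.07 ± 0.19 (SE; limma, adjusted p = 0.00271). The ALB difference was -0.88 without both PLC arrays of low 5 prime signal (limma, adjusted p = 0.0309). The arrays labelled SNU449, where ALB was abundant, gave a log2 change of -0.01, and PLC differed from them as well (-1.01; limma, adjusted p = 0.0471). The pseudogene CTSLP8, whose probe set may also read the related CTSL transcript, differed by -1.14, and NUTM2A-AS1 by -0.96, a call lost without both PLC arrays (limma, adjusted p = 0.0763).

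**Figure D3:**
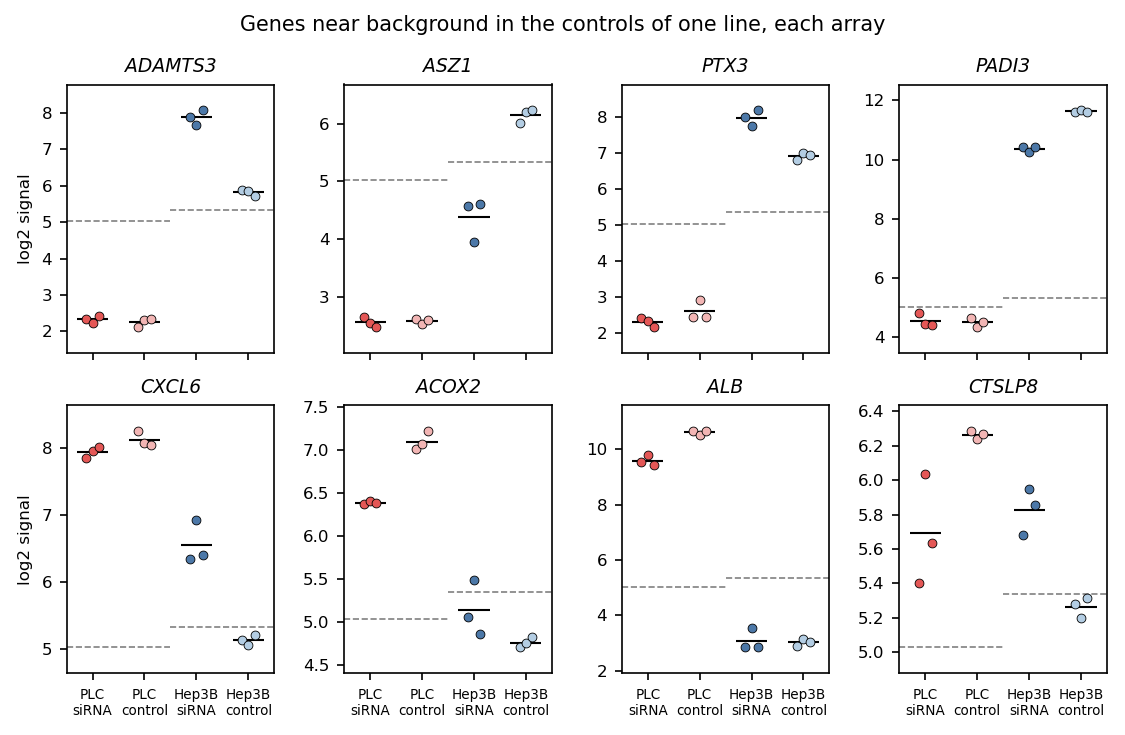
Log2 signal on each array (points; bars are group means) of 8 genes near background in the controls of a single line, in the order PLC ATAD2 siRNA, PLC control, Hep3B-labelled ATAD2 siRNA and Hep3B-labelled control, with the background ceiling of each line dashed. ADAMTS3, ASZ1, PTX3 and PADI3 lie under the ceiling on all PLC arrays, and ALB on all Hep3B-labelled arrays, whereas CXCL6 rises above it after knockdown.

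The 32 genes called in opposite directions split into 15 that rose in PLC and fell on the Hep3B-labelled arrays and 17 that did the reverse. Of the 32, 20 were above background in both controls, and 12 were near background in at least 1. Leaving out both PLC arrays of low 5 prime signal gave 25 genes called in opposite directions, of which 21 were near background in at least 1 of the controls. PDE7B, a cAMP phosphodiesterase, read 8.99, 8.74 and 9.01 on PLC ATAD2 siRNA arrays and 8.50, 8.50 and 8.54 on PLC controls, against 7.42, 7.45 and 7.47 on Hep3B-labelled ATAD2 siRNA arrays and 8.04, 7.99 and 8.11 on their controls. Treated and control arrays did not overlap in either line. PDE7B rose 1.32-fold in PLC and fell 1.52-fold on the Hep3B-labelled arrays (difference 1.0 ± 0.11 SE; limma, adjusted p = 3.17e-05), although neither of its other probe sets passed. RO60, which binds small Y RNAs, rose 1.29-fold in PLC and fell 1.55-fold on the Hep3B-labelled arrays, and 2 of its 4 other probe sets passed in the same direction. The myosin motor gene MYO5C rose 1.19-fold and fell 1.29-fold, in that order of lines.

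The secreted protease gene ADAMTS1 and the basement membrane collagen gene COL4A2 had the same pattern, but both were near background in the PLC controls. ADAMTS1 read 4.28, 4.19 and 4.19 on PLC ATAD2 siRNA arrays and 3.69, 3.74 and 3.60 on PLC controls, all under the ceiling, against 7.40, 7.09 and 7.46 and 7.86, 7.80 and 7.74 in the same groups under the Hep3B label. Its rise in PLC therefore took place within the range of genes that are not expressed.

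In the other direction, APOE, an apolipoprotein of lipid transport, read 10.52, 11.03 and 10.49 on PLC ATAD2 siRNA arrays and 11.33, 11.35 and 11.42 on PLC controls, against 8.45, 8.54 and 8.36 on Hep3B-labelled ATAD2 siRNA arrays and 8.02, 7.94 and 8.03 on their controls. It fell 1.61-fold in PLC and rose 1.37-fold on the Hep3B-labelled arrays, and both other probe sets gave the same call. The difference was -1.14 ± 0.15 (SE; limma, adjusted p = 0.000146), and -0.79 with PLC replicate 2 as the only treated PLC array (limma, adjusted p = 0.000238). CXCL1, a neutrophil chemokine, read 9.33, 9.45 and 9.43 on PLC ATAD2 siRNA arrays and 9.75, 9.80 and 9.67 on PLC controls, against 7.97, 8.22 and 7.91 and 7.26, 7.43 and 7.53 in the same groups under the Hep3B label, again with no overlap (difference -0.96 ± 0.11 SE; limma, adjusted p = 8.17e-05). The complement inhibitor gene CD59 fell 1.14-fold in PLC and rose 1.27-fold on the Hep3B-labelled arrays, and all 4 of its other probe sets were called in the same direction. RESF1, a gene of retroelement silencing, fell 1.28-fold and rose 1.16-fold. ACOX2, an oxidase of bile acid synthesis in peroxisomes, fell 1.64-fold in PLC and rose 1.3-fold under the Hep3B label. Its Hep3B-labelled controls at 4.70, 4.75 and 4.82 lay under the ceiling, and so did its mean after knockdown there. That rise therefore lay within the range of genes that are not expressed.

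**Figure D4:**
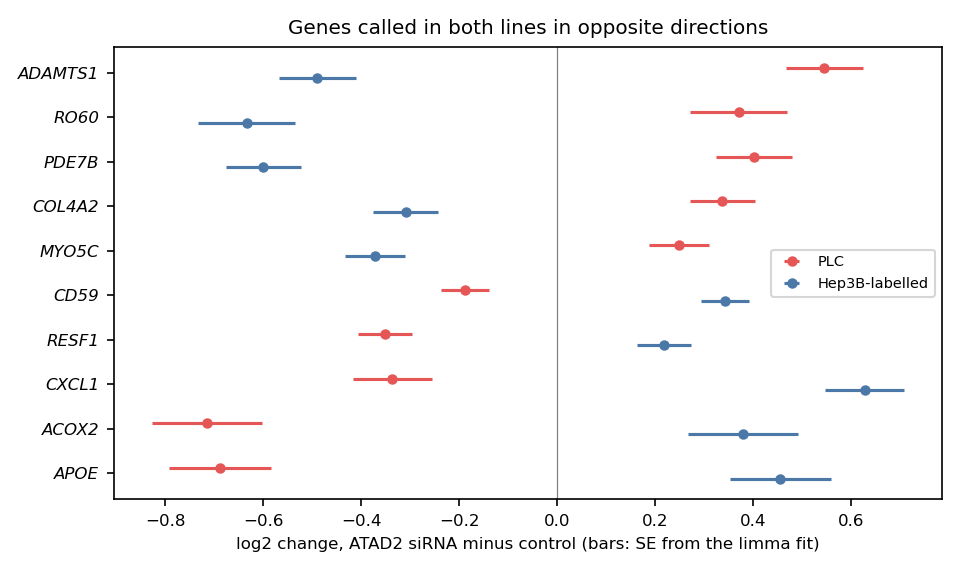
Log2 change (ATAD2 siRNA minus control; bars are SE from the limma fit, n = 3 arrays in each group) in PLC and on Hep3B-labelled arrays for 10 genes called in opposite directions, the 5 of smallest interaction p in each direction. The changes lie on opposite sides of 0 for all 10, from ADAMTS1, up by 0.55 in PLC, to APOE, down at -0.69.

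Gene lists were then read across the contrast by their counts and medians. Over all 19777 genes the median difference was 0.03 log2 units, and the lists were drawn up with earlier results of these data known. Hepatocyte genes leaned toward lower values in PLC. Of 44 measured plasma protein and liver enzyme genes, 16 had a negative and 1 a positive difference past the threshold, 38.6% of the list against 9.7% of all genes, with a median of -0.28. The list's median deviation from the controls was -0.24, -0.18 and -0.27 on the PLC ATAD2 siRNA arrays and 0.04, -0.05 and -0.03 on the Hep3B-labelled ones, and the PLC arrays all lay lower. In PLC 15 of the genes fell and 1 rose, while on the Hep3B-labelled arrays 4 rose and 4 fell. However, 17 of the 44 were near background in the Hep3B-labelled controls alone and 11 in both, and only 16 were above background in both.

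ORM1, an acute phase plasma protein whose probe set may also read its near-identical copy, APOC3, APOA1 and APOA2, apolipoproteins, RBP4, the retinol carrier, and AFP, the fetal albumin, all fell in PLC and were near background in the Hep3B-labelled controls. Their PLC log2 changes were -0.82, -0.92, -0.71, -0.59, -0.67 and -0.38. The line-dependent call of AFP was lost without both PLC arrays of low 5 prime signal (-0.38; limma, adjusted p = 0.0778). APOA1 read 6.91, 6.96 and 6.89 on PLC ATAD2 siRNA arrays and 7.63, 7.62 and 7.65 on PLC controls, with no overlap. Expressed in both lines, ceruloplasmin (CP) fell by 0.58 in PLC on the log2 scale and the urea cycle enzyme gene ASS1 by 0.32, with differences of -0.93 and -0.45. The clotting factor gene F9 was the exception, with 4.16, 3.83 and 3.93 on PLC ATAD2 siRNA arrays and 3.42, 2.56 and 2.99 on PLC controls, all under the ceiling. Without both PLC arrays of low 5 prime signal, 10 list members had a negative and 2 a positive difference, with a median of -0.24.

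The promoter of ALB is shown for this list. In 300 bases around annotated gene starts (RefSeq, GRCh38.p14), the HNF1 word GTTAAT, read on both strands, was present in 9 of 33 promoters of the list (27.3%) and in 6.89% of 27305 promoters. Of the 12 list members with a called difference and a promoter, 5 held it. The list was chosen for liver genes, so that its share describes the list and not the response. HNF1 factors are homeodomain activators of liver genes. The ALB window lies at chr4:73404037-73404336 on the plus strand, and capitals mark the word.
ALB: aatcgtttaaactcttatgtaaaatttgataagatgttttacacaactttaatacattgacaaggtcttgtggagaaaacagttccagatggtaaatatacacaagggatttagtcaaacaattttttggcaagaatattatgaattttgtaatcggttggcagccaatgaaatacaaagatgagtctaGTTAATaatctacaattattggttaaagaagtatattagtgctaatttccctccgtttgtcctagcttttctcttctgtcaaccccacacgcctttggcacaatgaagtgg

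Of 19 liver-enriched transcription factor genes, 7 had a negative and 1 a positive difference (42.1%), with a median of -0.16. The share stands against 9.7% of all genes and 13.4% of genes above background in both controls. Of the 19, 10 were above background in both controls, 8 near background in the Hep3B-labelled controls alone and 1 in both. With only genes above background in both controls tested, 1 of those 10 was positive and 4 were negative. CEBPD, a factor of the acute phase response, read 8.68, 8.55 and 8.69 on PLC ATAD2 siRNA arrays and 8.63, 8.66 and 8.61 on PLC controls, against 10.66, 10.95 and 10.62 and 10.07, 9.98 and 10.12 in the same groups under the Hep3B label. It rose 1.60-fold there, with every treated array above every control (difference -0.68; limma, adjusted p = 0.000962). The lipid-sensing receptor gene PPARA differed by -0.52 and rose on the Hep3B-labelled arrays, while the forkhead factor FOXA2 differed by 0.65 and fell on them. Its relative FOXA3 was called in opposite directions, with -0.29 in PLC and 0.26 on the Hep3B-labelled arrays, where its controls were near background.

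Genes of DNA replication leaned the other way. Of 53 E2F and G1/S genes, 17 had a positive and 1 (CDC25A) a negative difference, 34% of the list, with a median of 0.22. That share stands against 9.7% of all genes and 13.4% of genes above background in both controls, where 52 of the 53 lay. The median deviation was -0.0047, -0.04 and -0.01 on PLC ATAD2 siRNA arrays and -0.26, -0.38 and -0.20 on Hep3B-labelled ones, which all lay lower. On the Hep3B-labelled arrays 32 of the genes fell and 1 rose, and in PLC 3 fell and 0 rose. Of all genes, 7.74% fell on the Hep3B-labelled arrays and 2.23% in PLC. UHRF1, which couples DNA methylation to replication, read 9.19, 8.87 and 9.21 on PLC ATAD2 siRNA arrays and 8.97, 8.97 and 8.87 on PLC controls, against 9.06, 8.91 and 9.07 on Hep3B-labelled ATAD2 siRNA arrays and 9.84, 9.84 and 9.73 on their controls. Treated and control arrays overlapped in PLC and not under the Hep3B label (difference 0.94 ± 0.12 SE; limma, adjusted p = 0.00011). Cyclin E1 (CCNE1) differed by 0.63 (limma, adjusted p = 0.000165), and BRCA1 and E2F1 by 0.51 each, calls that were lost without both PLC arrays of low 5 prime signal (limma, adjusted p = 0.31 and 0.182).

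The size of this shift depended on the scaling. Over genes above background in both controls the median difference also moved, from 0.03 as reported to -0.05 on the values as deposited and -0.10 with centred arrays. On the values as deposited the median of the E2F and G1/S list was 0.09, with 7 positive and 1 negative call. With arrays centred on their medians it was 0.03, with 3 positive and 2 negative. Without both PLC arrays of low 5 prime signal it was 0.23, with 7 positive calls. Among 56 G2/M and mitosis genes, 9 had a positive difference and 0 a negative one (16.1%), with a median of 0.19. All 56 were above background in both controls, where 13.4% of genes were called, so that the share was close to that of like genes. On the values as deposited 3 were positive with a median of 0.08, and with centred arrays 1 with a median of 0.02. The median deviation was -0.02, 0.01 and 0.05 on PLC ATAD2 siRNA arrays and -0.08, -0.36 and -0.04 on Hep3B-labelled ones, so that replicate 2 stood lowest. With that array left out, the list had 6 calls and a median of 0.09. HMMR, a spindle protein, differed by 0.76 (limma, adjusted p = 0.00469), NUSAP1, which bundles microtubules, by 0.54, the kinesin KIF18A by 0.44 and CDCA3 by 0.42, and KIF18A lost its call in 22 of the 31 other settings. Without both PLC arrays of low 5 prime signal the calls of HMMR, NUSAP1 and CDCA3 were lost (limma, adjusted p = 0.054, 0.223 and 0.271).

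E2F factors bind TTTCCCGC and related words. At least 1 of the words TTTCCCGC, TTTGGCGC, TTTGCCGC and TTTCGCGC, on either strand, was present in 24 of 46 promoters of the E2F and G1/S list (52.2%) and in 3.33% of 27305 promoters. Of the 17 list members with a called difference and a promoter in the table, 8 held such a word. The list was chosen for E2F and G1/S genes, so that the share describes the list and not the response of its members. The windows of UHRF1 (chr19:4909251-4909550, plus strand) and of E2F1 (chr20:33686336-33686635, minus strand) are shown with these words in capitals.
UHRF1: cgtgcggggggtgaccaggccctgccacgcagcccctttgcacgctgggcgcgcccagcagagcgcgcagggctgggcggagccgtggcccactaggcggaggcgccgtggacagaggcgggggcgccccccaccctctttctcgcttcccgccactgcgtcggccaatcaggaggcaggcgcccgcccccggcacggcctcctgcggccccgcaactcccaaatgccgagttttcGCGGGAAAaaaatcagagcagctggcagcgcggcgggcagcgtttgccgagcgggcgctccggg
E2F1: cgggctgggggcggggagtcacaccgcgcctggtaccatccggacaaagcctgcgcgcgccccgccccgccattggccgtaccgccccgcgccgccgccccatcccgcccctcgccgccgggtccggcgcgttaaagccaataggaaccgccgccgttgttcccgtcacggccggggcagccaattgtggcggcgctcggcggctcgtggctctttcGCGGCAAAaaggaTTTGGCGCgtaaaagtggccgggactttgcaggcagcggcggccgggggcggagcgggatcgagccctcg

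Immediate early genes had a list median of 0.32, with 7 positive and 1 negative call among 29 (27.6%, against 9.7% of all genes). Of the 29, 27 lay above background in both controls, where 13.4% of genes were called. The median deviation was 0.03, -0.02 and 0.04 on PLC ATAD2 siRNA arrays, and -0.12, -0.65 and -0.07 on Hep3B-labelled ones, where replicate 2 lay far below the other arrays. Without that replicate the median was 0.15, and with the 5 prime signal as a covariate it was 0.10, with 1 positive and 1 negative call. ATF3, a stress-induced factor, read 9.05, 9.27 and 9.08 on PLC ATAD2 siRNA arrays and 9.23, 9.33 and 9.39 on PLC controls, against 7.35, 6.27 and 7.30 and 8.23, 8.26 and 8.39 in the same groups under the Hep3B label (difference 1.14; limma, adjusted p = 0.013). KLF4, a Krüppel-like factor, ran against the rest. It read 10.08, 10.17 and 10.11 on PLC ATAD2 siRNA arrays and 9.99, 10.12 and 10.09 on PLC controls, against 8.09, 8.001 and 8.18 on Hep3B-labelled ATAD2 siRNA arrays and 7.04, 6.93 and 6.93 on their controls. It rose 2.18-fold under the Hep3B label, with a difference of -1.08 (limma, adjusted p = 2.06e-05).

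Serum response factor binds the CArG box, which was present in 2 of 21 promoters of the immediate early list (9.52%) and in 1.29% of all promoters. Of the 7 list members with a called difference and a promoter, 1 held it, and the share describes the list and not the response. The EGR1 window (chr5:138465229-138465528, plus strand) holds 2 of them, in capitals.
EGR1: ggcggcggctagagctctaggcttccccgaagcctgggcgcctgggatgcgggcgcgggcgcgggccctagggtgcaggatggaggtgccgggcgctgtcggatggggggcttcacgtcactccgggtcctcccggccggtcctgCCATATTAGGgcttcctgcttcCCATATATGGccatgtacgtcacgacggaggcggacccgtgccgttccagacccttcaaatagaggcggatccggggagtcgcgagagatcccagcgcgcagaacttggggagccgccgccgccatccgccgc

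Sterol, autophagy and NRF2 genes leaned toward negative differences. Of 19 sterol biosynthesis genes, 7 had a negative and 0 a positive difference (36.8% against 9.7% of all genes), with a median of -0.28. On the Hep3B-labelled arrays 7 rose and 1 fell, and in PLC 1 fell. The median deviation was -0.03, 0.03 and -0.11 on PLC ATAD2 siRNA arrays and 0.22, 0.19 and 0.24 on Hep3B-labelled ones. HMGCS1, the synthase at the entry of the pathway, read 9.45, 9.08 and 9.19 on PLC ATAD2 siRNA arrays and 9.16, 9.13 and 8.98 on PLC controls, which overlapped, against 8.77, 8.42 and 8.81 and 7.95, 7.89 and 8.03 in the same groups under the Hep3B label, which did not. Its difference was -0.55 ± 0.14 (SE; limma, adjusted p = 0.0228), and its other probe set passed in the same direction. SC5D differed by -0.61 and SQLE by -0.53, with rises on the Hep3B-labelled arrays. The call of SC5D was lost with the mean of its probe sets (-0.32; limma, adjusted p = 0.0711), and that of SQLE without both PLC arrays of low 5 prime signal (limma, adjusted p = 0.0584). EBP, a sterol isomerase, read 9.51, 10.07 and 9.61 on PLC ATAD2 siRNA arrays and 10.07, 10.16 and 10.09 on PLC controls, so that the arrays of low 5 prime signal were the low ones. Without both, the list's median was -0.11, with 4 negative calls.

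The CCAAT box, bound by NF-Y, which acts beside SREBP2 on sterol genes, was present as CCAAT on either strand in 15 of 17 promoters of the sterol list (88.2%). It was present in 36 of 47 promoters of the G2/M list (76.6%) and in 35.7% of all promoters. All 5 called sterol members and all 9 called G2/M members with a promoter held it. With most promoters of both lists holding the box, these shares describe the lists and not the response. The HMGCS1 window (chr5:43313363-43313662, minus strand) holds 2, in capitals.
HMGCS1: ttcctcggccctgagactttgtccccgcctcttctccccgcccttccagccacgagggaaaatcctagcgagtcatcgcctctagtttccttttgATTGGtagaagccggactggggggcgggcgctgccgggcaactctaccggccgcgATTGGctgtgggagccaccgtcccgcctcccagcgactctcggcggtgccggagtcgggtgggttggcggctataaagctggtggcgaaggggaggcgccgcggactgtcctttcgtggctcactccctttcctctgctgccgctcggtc

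Of 31 autophagy and lysosome genes, 10 had a negative and 0 a positive difference (32.3%), with a median of -0.25. Of all genes 9.7% were called, and 13.4% of genes above background in both controls, where 30 of the 31 lay. BECN1, an initiator of autophagy, read 8.15, 8.57 and 8.13 on PLC ATAD2 siRNA arrays and 8.56, 8.62 and 8.67 on PLC controls, against 9.07, 9.42 and 8.92 and 8.83, 8.82 and 8.88 in the same groups under the Hep3B label. Again PLC replicates 1 and 3 were the low arrays, and without both the BECN1 difference of -0.63 was -0.34 (limma, adjusted p = 0.22) and the list had 3 negative calls with a median of -0.15. TFEB, the main transcription factor of lysosome genes, rose on the Hep3B-labelled arrays by 0.55 and was near background in PLC (difference -0.60). The proton pump subunits ATP6V0D1 and ATP6V1H differed by -0.51 and -0.50. ATP6V0D1 lost its call in 19 of the 31 other settings, among them the one without both PLC arrays (-0.20; limma, adjusted p = 0.393). With the mean of probe sets ATP6V1H was at -0.22 and TFEB at -0.27, and neither passed (limma, adjusted p = 0.101 and 0.0604). Of 25 NRF2 targets, 23 of them above background in both controls, 5 had a negative and 1 a positive difference (24%), with a median of -0.23. On the values as deposited 12 were negative with a median of -0.32, and with centred arrays 13 with a median of -0.38. Genes above background in both controls had medians of -0.05 and -0.10 in the same order. The aldo-keto reductases AKR1C1, AKR1C2 and AKR1C3, near-identical copies whose probe sets may share signal, differed by -0.64, -0.77 and -0.69 and fell in PLC, and AKR1C1 did not pass with the mean of its probe sets (-0.48; limma, adjusted p = 0.0792). The malic enzyme gene ME1 differed by 0.44 and fell on the Hep3B-labelled arrays.

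**Figure D5:**
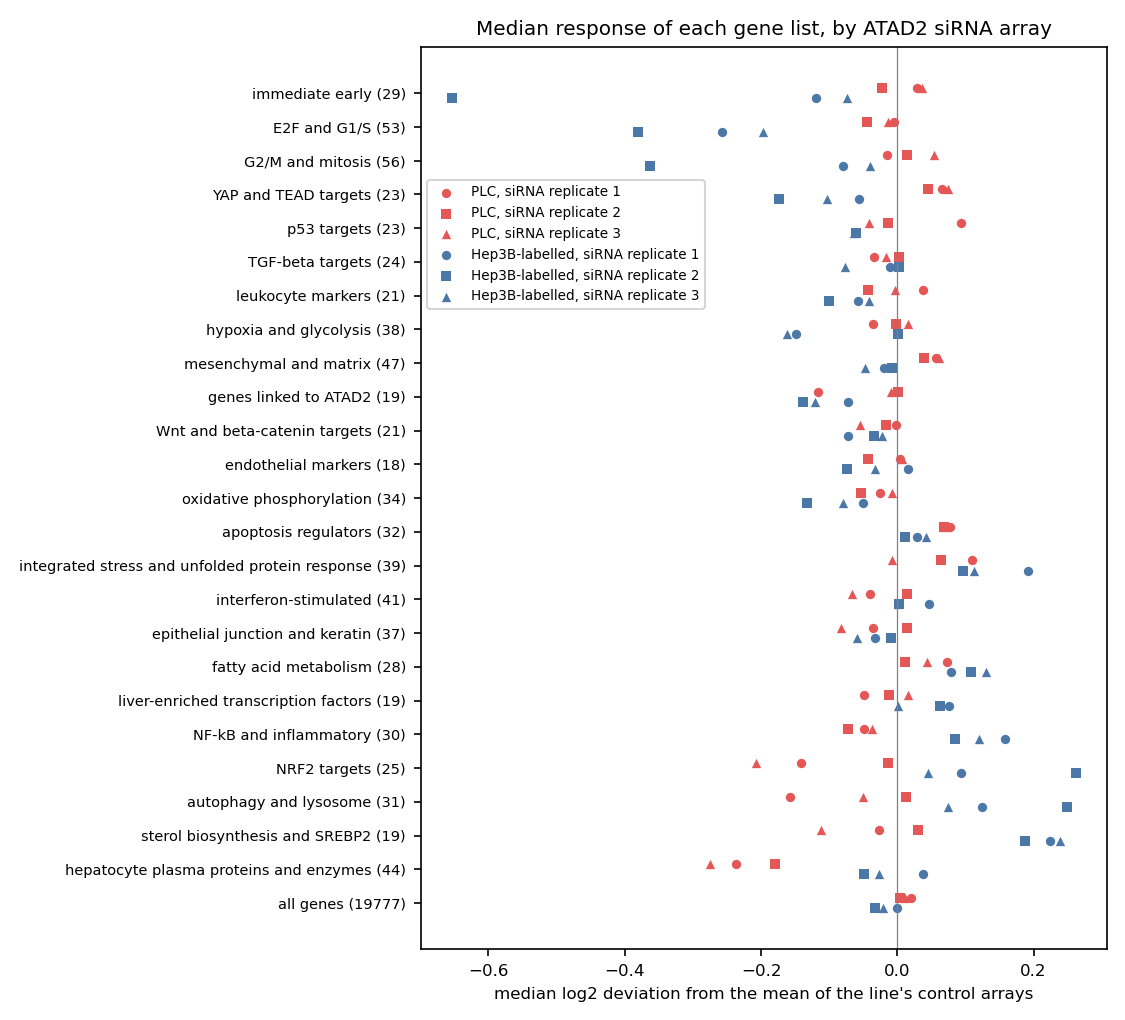
Median log2 deviation of each gene list (number of measured genes in brackets) from the mean of the control arrays of its own line, for each of the 3 PLC and 3 Hep3B-labelled ATAD2 siRNA arrays. Hepatocyte genes lie lowest in PLC, between -0.27 and -0.18, and immediate early genes on Hep3B-labelled replicate 2, at -0.65, whereas all genes lie near 0.

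Inflammatory and growth factor lists held single genes of large difference. Their shares of called members stand against 9.7% of all genes and 13.4% of genes above background in both controls. Of 30 NF-kB and inflammatory genes, 5 had a negative and 1 a positive difference (20%), with a median of -0.20, CXCL6, C3, CXCL1 and the chemokine CCL20 (-0.65) among them. Of 38 hypoxia and glycolysis genes, 7 had a positive and 2 a negative difference (23.7%), which with centred arrays became 3 and 4. VEGFA, the angiogenic factor, read 10.42, 10.19 and 10.37 on PLC ATAD2 siRNA arrays and 10.28, 10.29 and 10.29 on PLC controls, which overlapped, against 8.95, 9.24 and 9.05 on Hep3B-labelled ATAD2 siRNA arrays and 9.998, 10.09 and 10.11 on their controls, which did not. The VEGFA difference was 1.03 ± 0.10 (SE; limma, adjusted p = 1.57e-05). The glucose transporter SLC2A1 differed by 0.75, the peptide hormone adrenomedullin (ADM) by 0.56, and the hypoxia factor EPAS1 by -0.58, a call lost with the mean of its probe sets (-0.31; limma, adjusted p = 0.0521). Of 24 TGF-beta targets 5 were positive and 1 negative (25%), with the inhibitory SMAD6 at 0.81, LTBP3 at 0.63 and the receptor TGFBR2 at -0.83. The median of the TGF-beta list was 0.09 as reported, -0.08 on the values as deposited and -0.14 with centred arrays. Genes above background in both controls had medians of 0.03, -0.05 and -0.10 in the same order. Of 23 YAP and TEAD targets 3 were positive and 3 negative (26.1%), with GADD45B at 0.98, AMOTL2 at 0.74 and the ectonucleotidase NT5E at -0.72. Of 21 Wnt targets 2 were positive, cyclin D1 (CCND1) at 0.80 and ZNRF3 at 0.45, and 0 negative (9.52%, near the share of all genes). ZNRF3 lost its call in 24 of the 31 other settings.

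CCND1, the D-type cyclin of G1, read 9.21, 9.27 and 9.10 on PLC ATAD2 siRNA arrays and 9.40, 9.28 and 9.25 on PLC controls, against 7.91, 8.05 and 8.09 on Hep3B-labelled ATAD2 siRNA arrays and 8.94, 8.93 and 8.93 on their controls. It fell 1.89-fold on the Hep3B-labelled arrays, and its other probe set gave the same call. Among 19 genes linked to ATAD2 in earlier work, 5 were positive, E2F1, CCND1, CCNE1, VEGFA and SGK1, and 2 negative (36.8%, against 9.7% of all genes). The list's median was 0.06 as reported and -0.10 with centred arrays, against 0.03 and -0.04 for all genes. E2F1, CCND1, CCNE1 and VEGFA were also counted in other lists, and E2F1 lost its call in 14 of the 31 other settings.

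Survival and stress genes were mixed. The shares called in these lists are to be read beside 9.7% of all genes and 13.4% of genes above background in both controls. Of 32 apoptosis regulators 3 were positive and 2 negative (15.6%), and with centred arrays 2 and 6. XIAP, a caspase inhibitor, read 10.12, 9.95 and 10.19 on PLC ATAD2 siRNA arrays and 10.06, 9.99 and 9.96 on PLC controls, against 8.55, 8.67 and 8.73 and 9.48, 9.55 and 9.61 in the same groups under the Hep3B label. It fell 1.87-fold under the Hep3B label (difference 0.99 ± 0.09 SE; limma, adjusted p = 1.02e-05), and 3 of its 6 other probe sets gave the same call. The death receptor TNFRSF1A and the BCL2 family member BID differed by -0.40 and -0.33, and both calls were lost without both PLC arrays of low 5 prime signal (limma, adjusted p = 0.0555 and 0.147). Of 23 p53 targets 4 were positive and 1 negative (21.7%), and with centred arrays 3 and 3. PMAIP1 (NOXA), a BH3-only death protein, differed by 1.02 and fell 2.16-fold on the Hep3B-labelled arrays, the cell cycle inhibitor CDKN1A differed by 0.49, TP53INP1 by 0.44 and MDM2 by 0.71. With the mean of probe sets TP53INP1 was at 0.09 and MDM2 at 0.18, and neither passed (limma, adjusted p = 0.721 and 0.107). Of 39 integrated stress and unfolded protein response genes 6 were positive and 6 negative (30.8%). Among the positive ones were the amino acid transporter SLC7A5 at 0.72, PSPH of serine synthesis at 0.64 and the folate enzyme MTHFD2 at 0.60. These ran against the commoner direction, since 17 of the 39 rose and 7 fell on the Hep3B-labelled arrays. On the values as deposited and with centred arrays 4 of this list were positive and 14 negative, with medians of -0.14 and -0.20, against -0.04 as reported. Genes above background in both controls had medians of -0.05 and -0.10 in those settings, and 0.03 as reported.

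Keratin and junction genes split by gene. Of 37 epithelial genes 5 were positive and 6 negative (29.7%, against 9.7% of all genes). KRT7 read 5.39, 5.56 and 5.38 on PLC ATAD2 siRNA arrays and 5.41, 5.53 and 5.61 on PLC controls, against 9.97, 10.23 and 9.89 on Hep3B-labelled ATAD2 siRNA arrays and 11.06, 11.13 and 11.13 on their controls (difference 1.0; limma, adjusted p = 0.000137). With the mean of its probe sets the KRT7 difference was 0.25 and did not pass (limma, adjusted p = 0.114). On the PLC arrays KRT7 lay near the 97th percentile of the olfactory receptor genes there, 5.51. The keratins KRT8 and KRT18 went the other way, at -0.94 and -0.53. KRT8 read 10.46, 11.03 and 10.50 on PLC ATAD2 siRNA arrays and 11.08, 11.15 and 11.06 on PLC controls, and without both PLC arrays of low 5 prime signal its difference was -0.58 (limma, adjusted p = 0.0584) and that of KRT18 -0.37 (limma, adjusted p = 0.146). The desmosomal cadherin DSC2 rose in both lines, 1.69-fold in PLC and 2.96-fold on the Hep3B-labelled arrays (difference -0.81; limma, adjusted p = 0.000141), and CDH1, E-cadherin, fell in PLC by 0.57 and was near background under the Hep3B label. The line-dependent call of CDH1 was lost without both PLC arrays (limma, adjusted p = 0.155). Of 47 mesenchymal and matrix genes 4 were positive and 4 negative (17%), and 15 were near background in PLC alone. SPARC, a matrix protein, had control levels of 4.10, 4.17 and 4.22 in PLC and 9.88, 9.88 and 9.84 under the Hep3B label, where it rose 1.78-fold (difference -0.99).

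In the remaining lists few members passed, and the shares stand against 9.7% of all genes. Of 28 fatty acid metabolism genes 4 were negative and 0 positive (14.3%), CROT, ACSL4, FASN and PDK4, at -0.59 to -0.28. With the mean of probe sets FASN was at -0.10, and neither FASN nor CROT passed (limma, adjusted p = 0.49 and 0.0549). PDK4 lost its call in 16 of the 31 other settings. Of 41 interferon-stimulated genes 3 were negative and 1 positive (9.76%), with IFIT1 at 0.55, near background in PLC, and ISG15 at -0.40. Of 34 oxidative phosphorylation genes 2 were positive and 1 negative (8.82%), SDHC, COX5B and ATP5F1A, all within 0.38 log2 units of 0. Leukocyte markers gave 1 positive (CD4) and 1 negative call (CD79B, near background in both controls) among 21 (9.52%), and endothelial markers 0 among 18. The calls of ACSL4, FASN, PDK4, SDHC, COX5B, ATP5F1A, CD4 and CD79B were lost without both PLC arrays of low 5 prime signal.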

How the data were processed

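The files hold log2 probe set signals of 54675 probe sets on 18 Affymetrix arrays, as deposited by the authors. The submitters' processing notes name limma, and how the values were normalized is not given in the sources used here. The sorted values differed between lines (deposited array medians of 4.14 to 4.21 in PLC and 5.36 to 5.42 under the Hep3B label), so all 18 arrays were quantile normalized together. Of the probe sets, 41097 had 1 gene, 1801 several and 11777 none in the platform annotation, and 41043 symbols were updated through RefSeq. For each of 19777 genes, 10523 of them with more than 1 probe set, the probe set of highest mean was kept.

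Means of the 6 groups were estimated by limma (version 3.58.1, R version 4.3.3; 12 residual and 4.01 prior degrees of freedom), and the interaction contrast was tested for every gene with Benjamini-Hochberg adjustment. The code was tested on simulated data. An exact test of 3 against 3 arrays cannot go below a two-sided p of 0.1, so single genes rest on the model, and the number of arrays limits the precision. A gene was near background where its control mean was at or under the 90th percentile of 82 olfactory receptor genes in that line. Named genes were the largest differences above background in both lines and near background in each, those of smallest p with changes in opposite directions, the largest with changes in the same direction, and the largest of each gene list. The few named beyond that, such as ORM1, CP and CDC25A, were chosen after their values were seen. The members and the 24 lists were chosen with earlier results of these data known. Scaling, probe set choice, filters, weights, covariates, thresholds and leaving out each array were varied. Promoters came from RefSeq (GRCh38.p14).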

Additional observations from a re-analysis of the deposited data

Results flagged for a closer look

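The response to ATAD2 knockdown differed between PLC and Hep3B-labelled cells for 1918 genes, as tested by the interaction term of the limma fit at an adjusted p under 0.05. The changes passed the test on opposite sides of 0 for 32 genes, among them the 5 in each direction of smallest interaction p. Higher in PLC and lower on the Hep3B-labelled arrays after knockdown were ADAMTS1 (a difference of 1.04 log2 units), PDE7B (1.0), RO60 (1.0), MYO5C (0.62) and COL4A2 (0.65). Lower in PLC and higher on the Hep3B-labelled arrays were CXCL1 (-0.96), APOE (-1.14), CD59 (-0.53), RESF1 (-0.57) and ACOX2 (-1.09). ADAMTS1 and COL4A2 were near background in the PLC controls and ACOX2 in the Hep3B-labelled controls. CTSLP8 (-1.14) and FOXA3, named for other reasons, were also lower in PLC and higher on the Hep3B-labelled arrays. The differences of all 10 kept their sign without both PLC arrays of low 5 prime signal, where PLC replicate 2 is the only treated PLC array. The rule that picked these genes required every PLC deviation to lie on a single side of all Hep3B-labelled deviations. The kept sign was thus fixed by the choice of genes and says nothing about RNA quality. It also concerns the difference between lines, and not whether the change in each line still passed on opposite sides of 0.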

How the results depend on the processing

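As reported, 1918 genes had a line-dependent response (941 positive, 977 negative, 32 with changes in opposite directions), 904 changed in PLC, 3247 changed on the Hep3B-labelled arrays, and 94 and 102 calls were near background in the PLC and in the Hep3B-labelled controls alone. Leaving out 1 array gave 1263 to 3323 line-dependent calls, 607 to 1692 positive, 656 to 1631 negative, 12 to 265 opposite, 402 to 3215 in PLC, 2355 to 3731 under the Hep3B label, and 69 to 118 and 71 to 172 near background. The highest of the line-dependent counts, 3323, came without PLC ATAD2 siRNA replicate 2, with 3215 changes in PLC, and the lowest, 1263, without Hep3B-labelled control replicate 2. The values as deposited gave 1544 negative and 55 opposite calls, normalization within each line 56 opposite, and centring on array medians 431 positive, 2099 negative and 69 opposite. The 12 PLC and Hep3B-labelled arrays alone gave 1074 calls, 525 positive, 549 negative and 4 opposite, 159 in PLC, and 60 near background in the Hep3B-labelled controls. Leaving out the dimmest 30% of genes gave 56 opposite, and the dimmest 50% gave 91, with 33 and 65 near background. Array weights by group gave 611 positive and 7 opposite calls, 169 in PLC and 62 near background in the Hep3B-labelled controls. A robust intensity trend gave 73 opposite and 1466 in PLC. With the replicate number as a block there were 649 negative and 15 opposite calls and 440 in PLC. Same-numbered arrays deviated together with correlations of 0.0928, 0.0568 and 0.0767 in PLC and 0.0165, -0.0373 and -0.0013 under the Hep3B label, so that the numbers were not taken as pairs, although each PLC array correlated best with its own number. The 5 prime covariate gave 1159 calls, 530 positive, 629 negative and 14 opposite, 394 in PLC, and 48 near background in the Hep3B-labelled controls. Testing every probe set gave 2888 calls, 1676 negative and 49 opposite, and 1531 in PLC. An adjusted p under 0.01 gave 751 calls, 364 positive, 387 negative and 2 opposite, 145 in PLC and 1980 under the Hep3B label, with 45 and 38 near background. A difference of at least 1 gave 81 calls, 49 positive, 32 negative and 8 opposite, 3 in PLC and 97 under the Hep3B label, with 14 and 4 near background. Chosen after seeing the data were genes above background in both controls alone, with 60 opposite calls, and leaving out both PLC arrays of low 5 prime signal, with 66 near background in the Hep3B-labelled controls. The causes of these shifts were not tested. Of 118 named genes with a call, 109 kept it on the values as deposited, 107 with centring, 94 with the mean of probe sets, 85 without both PLC arrays and 79 with the 5 prime covariate. With 3 arrays in each group and no detection calls used, differences of genes near background are the least certain.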
